A study of Mus musculus with 20 samples.

Results

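The comparison described here is of tumors from mice given an antibody against PD-1 alone with tumors from control mice. Its members were chosen by their treatment label only. They were the 2 anti-PD-1 libraries and the 2 control libraries, 4 of 20 RNA-seq libraries in all (10 groups of 2). In the study, cells of the SCCVII line, a murine head and neck squamous cell carcinoma line, were injected under the skin of immunocompetent C3H/HeOuJ mice, and antibody was injected intraperitoneally once tumors were palpable. The study's text gives a saline injection for the control group in one place and isotype antibodies in another. By their labels the 2 groups differ in the anti-PD-1 antibody, and none of the 4 libraries came from mice given APG-157, the oral curcumin-based drug that other groups received. The age and sex of the mice and the day on which the sequenced tumors were taken are not given in the sources used here. The 3 groups set beside anti-PD-1 below received anti-CTLA-4 alone, both antibodies, or APG-157 in the chow with anti-PD-1.

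PD-1 is an inhibitory receptor that T cells put on their surface after activation. When it binds its ligands PD-L1 or PD-L2 on tumor or myeloid cells, it recruits phosphatases that dampen signals from the T cell receptor and CD28, and a blocking antibody relieves this brake. T cells that are released in this way can secrete interferon gamma, which induces chemokines, antigen presentation genes and PD-L1 itself.

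Library totals of the 4 libraries lay between 48.7 and 55.1 in units of 1e6 estimated fragments. Values are CPM, counts divided by the scaled library total and multiplied by 1e6, which allow a gene to be compared between libraries but not with another gene. In such bulk RNA, fewer cells of a type and less RNA per cell cannot be told apart. Nothing in the labels tells whether A and B of a group are separate tumors. The p-values therefore reflect library-to-library spread, which may be technical. Squamous identity was not borne out by its basal markers. The simple-epithelium keratins Krt8 (731 to 909 CPM) and Krt18 (879 to 1180 CPM) were abundant in every library, and the mesenchymal filament gene Vim lay between 3940 and 5090 CPM. The basal squamous keratins Krt5 and Krt14 were at or near 0 (at most 0.0539 and 0.292 CPM), and Trp63 and Epcam were also below 1 CPM.

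No gene separated anti-PD-1 from control tumors by the test. Of 19567 genes tested with edgeR's quasi-likelihood test, 0 (percent called: 0) passed an adjusted p of 0.05 with a log2 fold change over 2, and dropping the fold requirement also left 0. The smallest adjusted p was 1. Unadjusted, 121 genes had a p under 0.05, 69 higher (0.353%) and 52 lower (0.266%) with anti-PD-1, where a uniform distribution of p would place 978. DESeq2 called 1 gene (0.00511%), A530020G20Rik, which held 3 and 1 fragments in the anti-PD-1 libraries and 0 in both control libraries. Among the 13505 genes with a mean of at least 1 CPM in the 4 libraries, the median size of the log2 fold change was 0.08 and the median standard error was 0.21. Both anti-PD-1 libraries lay above both control libraries for 2671 genes (13.7%) and below both for 1759 genes (8.99%), and these 2 shares are the background for the counts given below.

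In the fit of all 20 libraries the common biological coefficient of variation was 38.7%, while it was 23.2% within the anti-PD-1 pair and 23.5% within the control pair. Among the 4 libraries, those with the same letter were the closest: the median difference was 0.12 on the log2 scale between anti-PD-1 A and control A and 0.13 between anti-PD-1 B and control B. The corresponding difference was 0.20 between the 2 anti-PD-1 libraries and 0.25 between the 2 controls. Restricting the edgeR fit to the 4 libraries gave 479 genes at an unadjusted p under 0.05, 408 higher (2.09%) and 71 lower (0.363%), and a smallest adjusted p of 0.101, so no gene was called there either. With the replicate letter as a block, an alternative chosen after seeing the data, the 4 libraries gave 44 calls among 17225 genes (0.255%), and the cause of this difference was not tested.

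**Figure D1:**
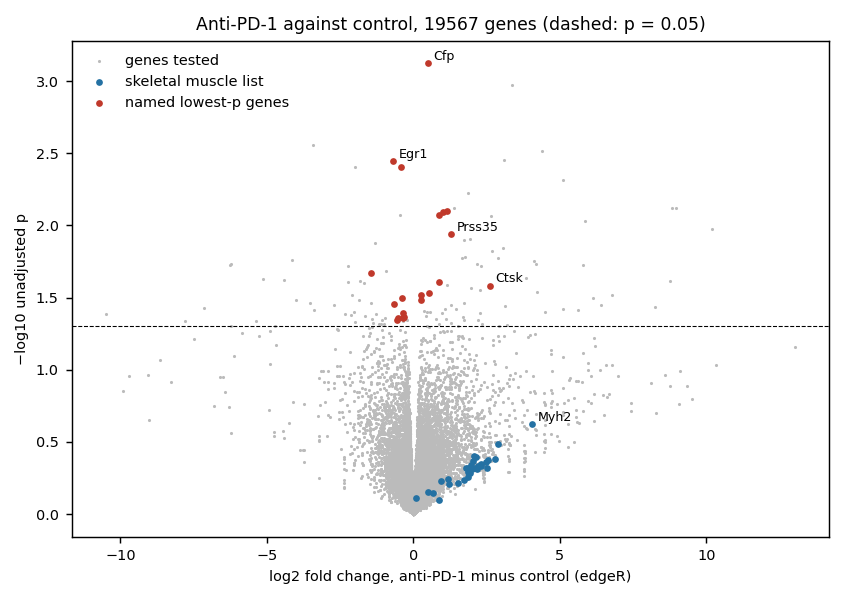
Each point is 1 of the 19567 genes tested in anti-PD-1 against control, with the edgeR log2 fold change on the x axis and −log10 of the unadjusted p on the y axis. Red points are the 20 genes named below for their low unadjusted values in edgeR, blue points are the 31 skeletal muscle genes, and the dashed line marks an unadjusted threshold of 0.05. The muscle genes all lie to the right of 0 and all below the line.

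Pdcd1 (ENSMUSG00000026285.9), which encodes PD-1, measured 5.93 and 7.60 CPM in the anti-PD-1 libraries and 3.72 and 4.26 CPM in the controls. The groups did not overlap, with means of 6.76 ± 1.18 and 3.99 ± 0.383 CPM (SD, n = 2 each). The edgeR log2 fold change was 0.76 ± 1.28 (standard error), with a 95% interval from −2.03 to 3.55, an adjusted p of 1 and a standard error of 0.25 in the fit of the 4 libraries alone. The ligand genes showed no such separation. Cd274, which encodes PD-L1, measured 16.2 and 15.5 CPM with anti-PD-1 and 17.7 and 10.7 CPM in the controls (log2 fold change 0.16 ± 0.96). Pdcd1lg2, which encodes PD-L2, was below 1 CPM in each of the 4 libraries, and Cd80, a ligand of CD28 and CTLA-4 that also binds PD-L1, overlapped (8.64 to 12.4 against 7.02 to 13.5 CPM).

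Downstream of the receptor, the phosphatase genes Ptpn11 (SHP-2) and Ptpn6 (SHP-1) had log2 fold changes of −0.01 ± 0.17 and 0.20 ± 0.29. Their 95% intervals ran from −0.37 to 0.35 and from −0.42 to 0.82. Ptpn6 was above both controls (103 and 125 against 99.8 and 98.7 CPM), as was Tox, a transcription factor of chronically stimulated T cells (3.24 and 4.73 against 2.03 and 2.66 CPM). Batf and Nfatc1, transcription factors of T cell activation, overlapped between the groups, with log2 fold changes of 0.17 and 0.14. Of the 9 genes of this axis, 8 had positive values, 3 did not overlap and 0 passed. The median log2 fold change was 0.17, against 0.004 over all genes tested.

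**Figure D2:**
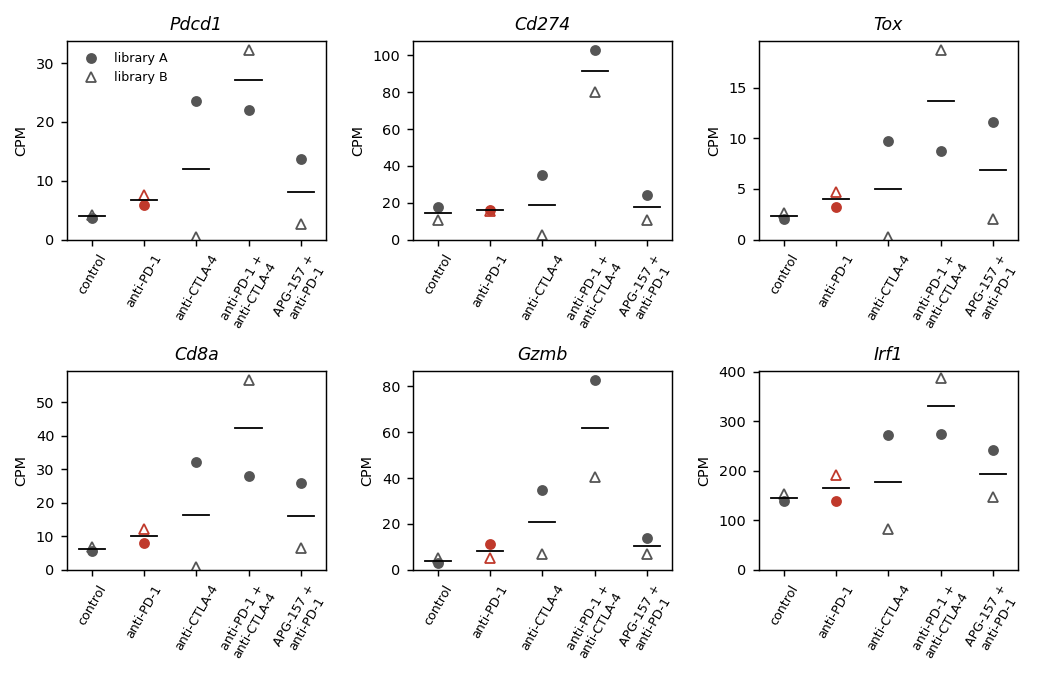
CPM of Pdcd1, Cd274, Tox, Cd8a, Gzmb and Irf1 in the 2 libraries of 5 groups, with circles for library A, triangles for library B and a line at their mean. The anti-PD-1 libraries (red) are set beside the controls, and the mean of the anti-PD-1 + anti-CTLA-4 libraries is the highest of the 5 for Pdcd1 and Cd274.

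Genes of T cells were mostly higher in the anti-PD-1 tumors, by amounts that the test did not separate from the spread. Of 23 T cell genes, 19 had positive log2 fold changes, 10 lay above both controls and none below, and the median was 0.57. Cd3e, a signalling chain of the T cell receptor complex, measured 6.82 and 10.3 CPM with anti-PD-1 and 4.56 and 7.91 CPM in the controls, so the groups overlapped. Cd3d likewise overlapped (2.13 and 3.54 against 1.67 and 2.92 CPM), while Cd3g did not (8.52 and 14.1 against 5.66 and 7.51 CPM, log2 fold change 0.78 ± 1.14). Cd8a, the coreceptor gene of cytotoxic T cells and a member singled out after its values were seen, measured 7.96 and 12.2 CPM against 5.66 and 6.67 CPM. Its log2 fold change of 0.71 had a 95% interval from −1.98 to 3.40 and an adjusted p of 1 by edgeR. The constant segments of the receptor beta chain went the other way: Trbc1 and Trbc2 had log2 fold changes of −0.27 and −0.18.

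Among cytotoxic effector genes, control A stood apart. The list mean, in log2(CPM + 0.1), was 2.06 and 1.89 in the anti-PD-1 libraries and 2.07 in control B, but 0.51 in control A, the lowest of all 20 libraries. Gzma, a granzyme, measured 3.46 and 3.69 CPM with anti-PD-1 and 1.29 and 2.49 CPM in the controls. Gzmb overlapped, at 11.3 and 4.97 against 3.07 and 5.02 CPM. Prf1, which encodes perforin, the pore former that delivers granzymes, measured 7.19 and 6.94 against 2.78 and 6.24 CPM. Against control B alone the list mean differed by −0.18 in library B, and in library A against control A by 1.55. Libraries of the same letter are not said to be pairs. Of 19 genes, 16 were positive, 7 lay above both controls and 0 passed, with a median of 0.51. The granzymes Gzmd, Gzme, Gzmf and Gzmg, chosen after their values were seen, were at 0.0718 to 0.539 CPM in control A and at 3.38 to 11 CPM in control B. The anti-PD-1 libraries lay between the controls for Gzmd, Gzme and Gzmf, while Gzmg in anti-PD-1 A (9.45 CPM) was above control B (8.98 CPM).

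Of 9 natural killer cell genes, 7 passed the filter on low counts, all 7 had positive values and 5 lay above both controls, with a median of 0.72. Ncr1, the activating receptor NKp46, measured 3.50 and 3.82 CPM against 1.44 and 3.60 CPM, again with control A lowest. Klrb1c and Klra7 did not overlap, but stayed below 2 CPM in each library. Among 13 checkpoint and exhaustion genes the median was 0.07 and 2 lay above both controls. Ctla4 measured 0.790 and 1.41 CPM against 1.29 and 1.03 CPM, Lag3 2.83 and 4.39 against 2.28 and 3.50 CPM, and Havcr2 (TIM-3) 44.4 and 38.3 against 45.3 and 41.9 CPM. All 3 of these inhibitory receptor genes overlapped. In the regulatory T cell list of 10 genes the median was 0.21 with 1 above both controls, and the lineage factor Foxp3 measured 1.38 and 2.23 CPM against 1.56 and 2.28 CPM.

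The beta chain variable segments were too sparse for a test and are given as a description. They held 103 and 192 fragments in the anti-PD-1 libraries and 86 and 115 in the controls. A different segment was the most abundant in each library: Trbv19 with 43.7% (95% Wilson interval 34.5 to 53.3) in anti-PD-1 A, Trbv16 with 22.4% (17.1 to 28.8) in anti-PD-1 B, Trbv13-1 with 50% (39.7 to 60.3) in control A and Trbv14 with 43.5% (34.8 to 52.6) in control B. These intervals cover counting error only. The leading segment in anti-PD-1 B held a smaller share than the leading segment of the other 3 libraries, with intervals that did not overlap.

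Most interferon-induced genes had higher values with anti-PD-1. Of 18 interferon gamma response genes, 17 had positive log2 fold changes and 12 (against 13.7% of all genes) lay above both controls, with none below, and the median was 0.50. Of 19 type I interferon response genes, all 19 were positive and 12 lay above both controls, with a median of 0.54. None of these 37 genes had an unadjusted p under 0.05 in the fit of 20 libraries. In the edgeR fit of the 4 libraries, 9 of the 18 and 7 of the 19 did, all of them higher (2.09% of all genes), and each had an adjusted p of 1. The interferon gamma list mean was 5.45 and 5.83 in the anti-PD-1 libraries and 5.15 and 5.2 in the controls, and the type I list mean was 4.98 and 4.53 against 4.29 and 4.29. The 2 lists had opposite order between the anti-PD-1 libraries, with library B higher for interferon gamma and library A higher for type I.

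Irf1, an interferon-induced transcription factor, overlapped (139 and 191 CPM with anti-PD-1 and 138 and 153 CPM in the controls, log2 fold change 0.18 ± 0.49), and Cxcl9, a chemokine that attracts T cells through CXCR3, did too because anti-PD-1 A was the lowest of the 4 (55.2 and 151 against 77.7 and 63.7 CPM). Among type I genes, Isg15, a ubiquitin-like modifier, measured 22.7 and 22.3 CPM against 15.8 and 19.7 CPM. Ifit1 and Ifit2, which restrict foreign RNA, overlapped (39.5 to 54.4 against 35.7 to 45.3 CPM, and 53.2 to 76.1 against 49.4 to 64.1 CPM).

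The promoters of these genes are shown because interferon-activated factors bind a short direct repeat, the interferon-stimulated response element. RefSeq windows of the 250 bases before each gene's start were matched by symbol on GRCm38.p6, while the count table was made on GRCm39. The letters GAAA, any 2 bases and GAAA again, or on the other strand TTTC, any 2 bases and TTTC, were present in 2.98% of 32851 windows. They were present in 6 of the 14 matched type I genes (42.9%) and in 9 of the 12 matched interferon gamma genes (75%). The letters TTCNNNGAA, known as a gamma-activated site, which reads the same on both strands, were in 7.02% of all windows, in 14.3% of the type I genes and in 50% of the interferon gamma genes. The 4 stretches below belong to the genes, 2 from each list, whose log2 fold changes led those of members that hold the first motif and lay above both controls (Irgm2 equalled Gbp2 at 0.62), and were picked after their values were seen. Capitals mark the first motif, overlapping copies included, and each stretch is 5′ to 3′ on the gene's strand.
Ifit3 (chr19:34583353-34583436, plus strand): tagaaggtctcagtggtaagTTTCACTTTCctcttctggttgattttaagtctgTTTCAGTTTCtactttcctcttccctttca
Oas3 (chr5:120777705-120777754, minus strand): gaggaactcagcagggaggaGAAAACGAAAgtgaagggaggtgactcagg
Gbp3 (chr3:142559979-142560034, plus strand): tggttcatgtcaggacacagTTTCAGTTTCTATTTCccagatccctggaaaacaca
Gbp2 (chr3:142620584-142620633, plus strand): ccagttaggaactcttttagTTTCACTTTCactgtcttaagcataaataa

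Ifit3, an antiviral tetratricopeptide protein gene, measured 53.8 and 37.0 CPM with anti-PD-1 and 26.8 and 27 CPM in the controls, a log2 fold change of 0.75 ± 0.53. Oas3, a sensor of double-stranded RNA, measured 20.1 and 11.9 CPM against 8.22 and 10.8 CPM. For both of these type I genes anti-PD-1 A was the higher library. The guanylate-binding protein genes Gbp3 (89.1 and 105 against 59.4 and 61.9 CPM) and Gbp2 (144 and 180 against 110 and 101 CPM) had library B higher. Their log2 fold changes were 0.68 ± 0.85 and 0.62 ± 0.89, and edgeR's adjusted p was 1 for each of the 4 genes. A motif match is a description of the letters and not evidence that a factor was bound in these tumors.

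**Figure D3:**
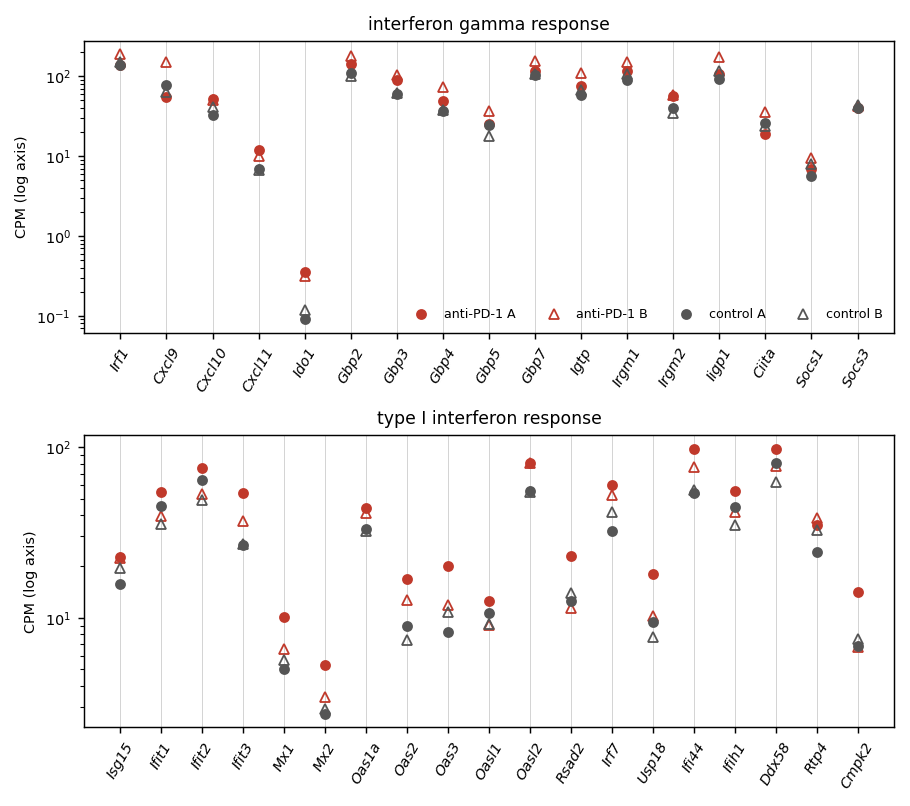
CPM on a log axis of 17 interferon gamma response genes (top) and the 19 type I interferon response genes (bottom) in the 2 anti-PD-1 (red) and 2 control (grey) libraries, circles for A and triangles for B. Both red points lie above both grey points for 11 genes in the top panel and 12 in the bottom panel.

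Antigen presentation genes had smaller differences. Their list mean was 7.89 in anti-PD-1 A, the lowest of the 4 libraries, and 8.46 in anti-PD-1 B, against 7.91 and 8.18 in the controls. All 16 had positive log2 fold changes, between 0.04 and 0.30, but only 4 lay above both controls, and the median was 0.16. The class I genes H2-K1 (2190 and 2560 against 2080 and 2170 CPM) and H2-D1 (1140 and 1340 against 1100 and 1170 CPM) and the light chain B2m (2450 and 3050 against 2480 and 2830 CPM) were nearly level. The class II genes varied more within each group than between the groups: Cd74, the invariant chain, measured 1020 and 2210 CPM with anti-PD-1 and 1220 and 1830 CPM in the controls.

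Myeloid and B cell genes did not separate the groups. The medians were −0.06 over 18 macrophage genes, 0.01 over 12 dendritic cell genes, 0.22 over 13 B and plasma cell genes and −0.02 over 20 inflammatory cytokine and NF-kB genes. Adgre1 (F4/80) measured 216 and 164 CPM with anti-PD-1 and 249 and 183 CPM in the controls, Cd68 224 and 278 against 262 and 257 CPM, and Csf1r, the receptor that macrophages need to survive, 464 and 467 against 546 and 427 CPM. These 3 macrophage genes overlapped. The dendritic cell genes Flt3, Xcr1 and Clec9a were below 5 CPM in each library and overlapped, as did the B cell genes Ms4a1 and Cd79a, below 2 CPM, and the cytokine genes Il1b, Il1a and Il6. In the neutrophil list 9 of 13 genes passed the low-count filter, with a median of −0.11. S100a8, S100a9 and Cxcr2 were highest in control B, and Csf3r overlapped.

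**Figure D4:**
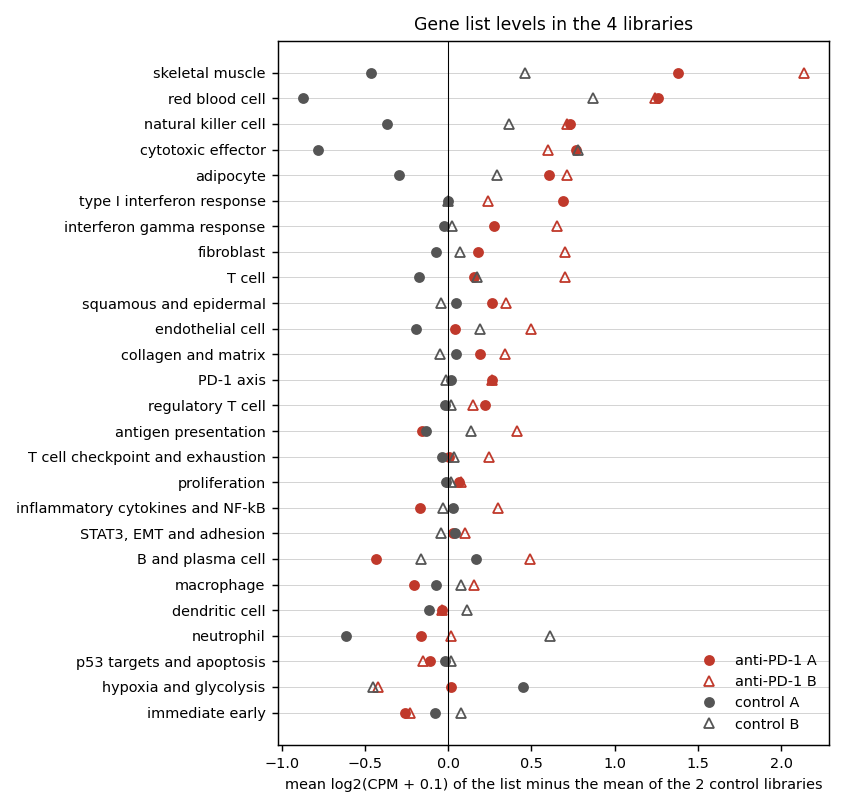
Mean log2(CPM + 0.1) of each of the 26 gene lists in the 4 libraries, minus the mean of the 2 controls, ordered by the difference between the groups. Skeletal muscle stands at the top, with both anti-PD-1 libraries above both controls, and control A is the lowest point for cytotoxic effector, natural killer and red blood cell genes.

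The largest list difference was in skeletal muscle genes. All 31 had positive log2 fold changes and 29 lay above both controls, with a median of 1.96 (0.004 over all genes), and none had an unadjusted p under 0.05 in the fit of 20 libraries. In the edgeR fit of the 4 libraries 25 of the 31 did, all higher, with a smallest adjusted p of 0.391, and 10 members of the list were among the 44 calls made with the replicate block. The list mean was 2.52 and 3.28 in anti-PD-1 A and B and 0.68 and 1.6 in control A and B. This was higher by 1.84 in library A and by 1.68 in library B than in the control of the same letter. The letters are not said to pair libraries, so these are not 2 matched repeats. Acta1, skeletal muscle actin, measured 39.6 and 142 CPM with anti-PD-1 and 10.3 and 22.1 CPM in the controls. Ckm, muscle creatine kinase, measured 3.6 and 11 against 0.772 and 3.21 CPM, and Mylpf, a fast myosin light chain, 22.8 and 38.4 against 6.80 and 8.91 CPM. Acta1 and Mylpf lay apart between the groups, as did Ckm, and library B was the higher of each pair. The log2 fold change of Acta1 was 2.49 ± 3.06 over 20 libraries, with a 95% interval from −4.20 to 9.17. Its standard error was 0.74 in the 4 libraries alone, with an unadjusted p of 0.0245 and an adjusted p of 1 by edgeR, and its adjusted p with the replicate block was 0.0268. Across the 20 libraries the list mean ranged from −1.53 to 7.08, and the anti-PD-1 libraries ranked 7 and 6 while the controls ranked 11 and 9. The part of muscle tissue in the other differences was not tested.

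Red blood cell genes also differed by library. The list mean was 4.20 and 4.18 in the anti-PD-1 libraries, the highest of the 20, and 3.81 in control B, but 2.07 in control A. Hbb-bs, adult beta globin, measured 354 and 387 CPM with anti-PD-1 and 66.7 and 403 CPM in the controls, and the alpha globins Hba-a1 (153 and 246 against 38.3 and 249 CPM) and Hba-a2 (161 and 173 against 33.6 and 221 CPM) had the same order. Slc4a1, the anion exchanger of the red cell membrane, was the member with an unadjusted p under 0.05. It measured 0.692 and 0.658 CPM with anti-PD-1 and 0.0718 and 0.0778 CPM in the controls (35, 36, 4 and 4 fragments), a log2 fold change of 3.14 ± 1.34, with an adjusted p of 1 by edgeR. Control A was also the lowest of the 4 libraries for the T cell and interferon gamma lists, and the part of blood content in them was not tested.

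**Figure D5:**
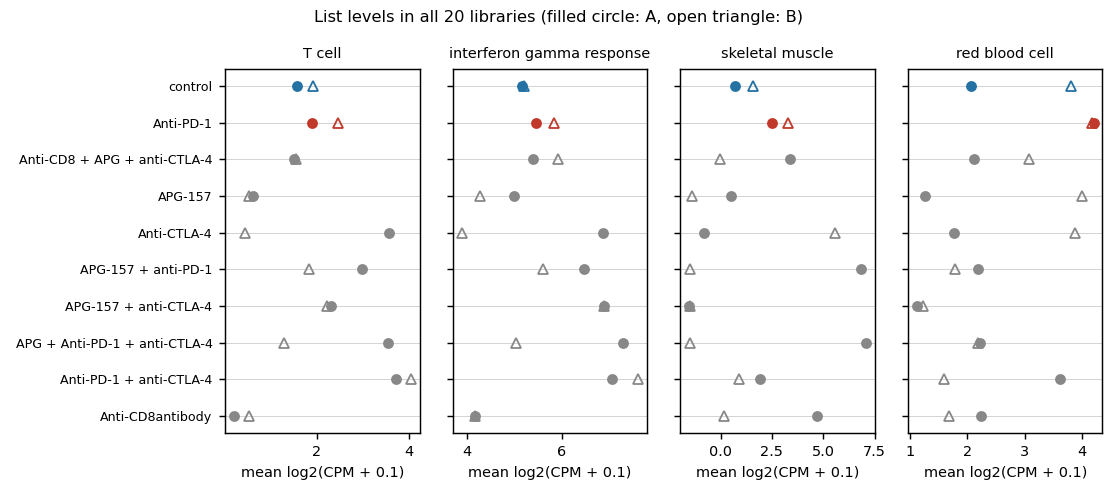
Mean log2(CPM + 0.1) of the T cell, interferon gamma response, skeletal muscle and red blood cell lists in all 20 libraries, with circles for library A and triangles for library B, control in blue and anti-PD-1 in red. The anti-PD-1 libraries are to the right of the control of the same letter in each panel, although the letters are not said to pair libraries. For T cell genes the groups overlap, with anti-PD-1 A at 1.9 and control B at 1.92. Over the series T cell and interferon gamma genes range from 0.20 to 4.04 and from 3.88 to 7.62.

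Stromal genes were mostly on the positive side, by less. Of 25 collagen and matrix genes, 21 were positive, 8 lay above both controls and 2 below both, with a median of 0.21. Col1a1, a chain of fibrillar collagen, measured 1560 and 1770 CPM with anti-PD-1 and 1120 and 1100 CPM in the controls (log2 fold change 0.58 ± 0.29, 95% interval −0.04 to 1.20). Col1a2 measured 1580 and 1480 against 1260 and 1340 CPM, while Col3a1 overlapped. Among 12 fibroblast genes the median was 0.31, and Fbln2, an elastic fibre protein gene, had an unadjusted p under 0.05 (47.2 and 38.1 against 17.5 and 25.7 CPM, log2 fold change 0.98 ± 0.43). That gene failed the correction, with an adjusted p of 1 by edgeR. Pdgfra and Pdgfrb overlapped, and Thy1 did too. All 12 endothelial genes were positive with a median of 0.24, and 3 lay above both controls. Pecam1 and Cdh5, junction genes of vessels, overlapped between the groups, and Kdr, a VEGF receptor gene, did not (28.7 and 30.6 against 25.4 and 24.1 CPM). In the adipocyte list 11 of 12 genes were positive and 5 lay above both controls (median 0.49), and Adipoq measured 0.198 and 0.621 against 0.0180 and 0.156 CPM.

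Proliferation genes differed little. Of 20 genes, 18 had positive values, but their median was 0.06 and the largest was 0.28. Mki67 measured 523 and 455 CPM with anti-PD-1 and 488 and 377 CPM in the controls, and Ccnb1 111 and 104 against 107 and 98.9 CPM, which overlapped. Top2a, a topoisomerase of dividing cells, measured 561 and 418 against 442 and 364 CPM. The hypoxia and glycolysis list had 14 of 16 negative values and a median of −0.22, with 2 genes below both controls. Control A was the highest library for Vegfa (84.4 and 55.4 against 128 and 54.0 CPM) and Car9 (19.9 and 17.3 against 44.7 and 10.8 CPM). The list mean was 6.83 and 6.39 in anti-PD-1 A and B and 7.26 and 6.36 in control A and B. It differed by 0.03 between the B libraries and by −0.43 between the A libraries, which are not said to be pairs. The p53 target and apoptosis list had a median of −0.13 over 15 genes, with 3 below both controls and 1 above, and its first members Cdkn1a, Mdm2 and Trp53 had log2 fold changes of −0.33, −0.14 and −0.11. Medians were −0.01 for 13 genes of STAT3, epithelial-mesenchymal transition and adhesion, and 0.36 for the 13 of 17 squamous genes that passed the filter. The squamous values ran from −3.74 for Krt5 to 4.16 for Krt17, which were at most 0.0539 and 0.384 CPM in the 4 libraries. The 4 genes above both controls, Krt14, Krt16, Krt17 and Dsp, were below 1 CPM in each of these libraries. Another 2 genes lay below both controls. Those 2 were the abundant keratin genes Krt8 (745 and 731 against 849 and 909 CPM) and Krt18 (879 and 889 against 1000 and 1180 CPM).

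Immediate early genes were mostly on the negative side. These genes are transcribed within minutes of growth factor or stress signals. Of 11 genes, 8 were negative, 4 lay below both controls (8.99% of all genes did) and the median was −0.31. Egr1, a zinc finger transcription factor, measured 81.6 and 84.0 CPM with anti-PD-1 and 104 and 166 CPM in the controls, with a log2 fold change of −0.70 ± 0.20, an unadjusted p of 0.0036 and an adjusted p of 1 by edgeR. Without control B, the higher control library, the Egr1 value was −0.33. Fos and Jun, which form the AP-1 factor, overlapped or were level (Fos 27.5 and 17.4 against 20.3 and 20.7 CPM, Jun 175 and 190 against 183 and 187 CPM).

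Single genes with the smallest p were then examined, 10 in each direction, among genes whose groups did not overlap. Cfp, which encodes properdin, a stabiliser of complement activation made by myeloid cells, had the smallest. It measured 133 and 126 CPM with anti-PD-1 and 91.2 and 91.4 CPM in the controls, a log2 fold change of 0.50 ± 0.12 with a 95% interval from 0.25 to 0.75 and an unadjusted p of 0.000751. Its adjusted p was 1 by edgeR and 0.0659 by DESeq2. Leaving out each of the 4 libraries in turn gave values between 0.46 and 0.55. Clec1a, a C-type lectin receptor gene, measured 8.34 and 7.91 against 3.77 and 4.26 CPM, and Nes, which encodes the filament nestin, 157 and 132 against 81.7 and 76.4 CPM. Their log2 fold changes were 1.02 ± 0.33 and 0.87 ± 0.28.

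Mefv, which encodes pyrin, measured 10.0 and 4.79 against 3.16 and 3.62 CPM, and its log2 fold change of 1.13 was 0.50 without anti-PD-1 A. Ctsk, a collagen-degrading cathepsin gene, rested on the same library, with 40.0 and 5.43 CPM against 2.93 and 4.51 CPM. Its log2 fold change of 2.61 was 0.54 without anti-PD-1 A. Masp1, a protease of the lectin pathway of complement, measured 6.03 and 5.08 against 3.70 and 2.43 CPM, and Prss35 1.56 and 1.5 against 0.718 and 0.525 CPM. Dennd2a, Gripap1 and Cdk16, with log2 fold changes of 0.54, 0.25 and 0.25, complete the 10 higher genes.

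After Egr1, the lower genes began with Gprc5a, a retinoic acid-inducible receptor gene, which measured 15.9 and 16.8 CPM against 19.5 and 24.1 CPM (log2 fold change −0.41 ± 0.12). Sox2, a stem cell transcription factor gene, measured 4.58 and 5.10 against 7.63 and 7.74 CPM, and Bmf, a pro-apoptotic gene, 21.6 and 26 against 39.6 and 30.8 CPM. Cd9, a tetraspanin gene, measured 205 and 211 against 238 and 292 CPM. Rps27a-ps2 had the largest change of the 10, −1.43, at 0.771 and 0.914 against 1.72 and 2.82 CPM, and as a pseudogene it may share reads with its parent gene. Avpi1, Tlcd1, Fgf7 and Afap1l2 had log2 fold changes between −0.53 and −0.31. Each of the 20 genes had an adjusted p of 1 by edgeR.

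Where anti-PD-1 differed from the other checkpoint antibody was tested by a direct contrast in which the controls had no part. The controls were still among the 20 libraries of the fit. Against anti-CTLA-4 alone, edgeR called 1 gene (0.00511%), Gm43802 (ENSMUSG00000105338.2), a predicted gene. It measured 4.94 and 6.01 CPM with anti-PD-1 and was listed at 0 fragments in both anti-CTLA-4 libraries, at least 192-fold higher from a floor of 3 fragments over the group, with an adjusted p of 0.0369. The controls held 4.18 and 2.45 CPM of it, and the anti-PD-1 + anti-CTLA-4 libraries 8.92 and 10.4 CPM. APG-157 + anti-CTLA-4 libraries held 13.6 and 12.8 CPM, but both libraries of that combination with CD8 depletion were at 0. The source of this on-off pattern was not tested. No call remained after removing any single one of the 4 libraries. Gprc5a fell by 0.88 ± 0.12 on the log2 scale relative to anti-CTLA-4 (15.9 and 16.8 against 30.5 and 29.9 CPM, adjusted p 0.0477 by edgeR), a change too small for the fold requirement. Unadjusted, 642 genes were higher (3.28%) and 905 lower (4.63%) with p under 0.05, and both anti-PD-1 libraries lay above both anti-CTLA-4 libraries for 18.5% of genes and below for 21.1%.

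The 2 anti-CTLA-4 libraries differed widely in immune content. Pdcd1 measured 23.6 CPM in library A and 0.426 CPM in library B, and Cd8a 32.2 and 0.800 CPM, so the anti-PD-1 values lay between them. Of 23 T cell genes 22 were lower with anti-PD-1, but only 1 lay below both anti-CTLA-4 libraries. In the cytotoxic list all 19 were lower and 8 lay below both (median −1.29). Of 20 inflammatory cytokine and NF-kB genes, 10 lay below both and 6 had an unadjusted p under 0.05, and of 20 proliferation genes 13 lay below both (median −0.25). Of 25 collagen and matrix genes, 13 lay above both and 8 had an unadjusted p under 0.05 (median 0.48). None of these list members passed the adjusted p.

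Against both antibodies together, edgeR called 0 genes (0%), with a smallest adjusted p of 0.305, while DESeq2 called 15 and the edgeR fit of the 4 libraries alone 59 of 17156 genes (0.344%), 49 of them lower with anti-PD-1 alone. At an unadjusted p under 0.05 there were 240 genes higher with anti-PD-1 alone (1.23%) and 548 lower (2.8%). Immune genes were on the lower side. Both anti-PD-1 libraries lay below both anti-PD-1 + anti-CTLA-4 libraries for 21 of 23 T cell genes, 18 of 19 cytotoxic genes, all 18 interferon gamma genes and all 16 antigen presentation genes, against 17.6% of all genes (20.9% lay above both). The medians were −1.92, −2.17, −1.71 and −1.03. Pdcd1 measured 5.93 and 7.60 CPM with anti-PD-1 alone and 22.1 and 32.2 CPM with both antibodies, and Cd274 measured 16.2 and 15.5 against 103 and 80.1 CPM. Both were among the 59, with adjusted p of 0.0233 and 0.00468 in that edgeR fit, as were 5 T cell, 4 cytotoxic and 3 interferon gamma genes. Proliferation genes had a median of 0.17, with 11 of 20 above both.

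Against APG-157 with anti-PD-1, edgeR called 0 genes (0%) with a smallest adjusted p of 1, and DESeq2 called 6. At an unadjusted p under 0.05 there were 162 genes higher with anti-PD-1 alone (0.828%) and 80 lower (0.409%). Both anti-PD-1 libraries lay above both compared libraries for 13.2% of genes and below for 9.08%. All 18 interferon gamma genes had negative values (median −0.47), and 3 of them lay below both libraries of the combination. Irf1 measured 139 and 191 CPM with the antibody alone and 241 and 147 CPM with APG-157 added, so the groups overlapped. Muscle genes again spread the most, with Acta1 at 1430 CPM in library A of the combination and 0.361 CPM in library B. All 7 red blood cell genes lay above both libraries of the combination, and 3 had an unadjusted p under 0.05 (median 2.34).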

How the data were processed

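RNA was isolated with a Qiagen kit and libraries were made with the KAPA mRNA HyperPrep method. The authors deposited expected counts per gene, not scaled for depth: reads were trimmed with Trimmomatic 0.39 and quantified with Salmon (1.5.0 in the submitters' processing notes, a later patch version in the paper's methods) on the GENCODE annotation of GRCm39. A log2 table made by the authors was not used. The 20 columns were rounded, filtered with filterByExpr (minimum count 10, minimum total 15) over 10 groups, and fitted with edgeR 4.0.16 (TMM, robust quasi-likelihood, no block, 10 residual degrees of freedom). This left 19567 of 54309 genes, and symbols matched 51484. P-values were adjusted by Benjamini-Hochberg over all genes tested. DESeq2 1.42.0, run in R 4.3.3, was an alternative. Standard errors were derived from the F statistic. Named genes were the PD-1 axis, called genes, the 10 higher and 10 lower genes of smallest p without overlap and with at least 1 CPM, and in each of 26 lists the first 3 members and those with an unadjusted p under 0.05, apart from some that are not reported here. Members and lists were chosen with earlier results of these data known. List members were counted with no set test. Figures were drawn with Python 3.11.15 and matplotlib 3.10.9.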

Additional observations from a re-analysis of the deposited data

How the results depend on the processing

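Anti-PD-1 against control gave 0 called genes with median-ratio (RLE) factors, with no low-count filter, with a filter at a mean of 1 CPM, without the fold minimum, with the replicate letter as a block over 20 libraries and in the 4 compared libraries alone. DESeq2 called 1 gene, and 5 with the alphabetically first group as its reference level, an alternative added after seeing the data. Leaving out each compared library in turn gave 0 to 1 genes. The single call, without control A, was Pde2a (498 and 678 fragments with anti-PD-1, 399 and 0 in control A and B). The replicate block, over 20 libraries, gave 0, 1, 0 and 0 genes in the comparisons with control, with anti-CTLA-4, with the pair of antibodies, and with the APG-157 combination. The letters are not said to pair libraries: the A minus B differences of 2 groups correlated positively in 24 of 45 pairs of groups (from −0.51 to 0.79), and at 0.46 for anti-PD-1 and control. The 4 compared libraries with a replicate block, added after seeing the data, gave 44 calls (40 higher, 4 lower), of which 10 are in the skeletal muscle list. The cause of this difference was not tested.

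Against anti-CTLA-4 the count of 1 became 2 with no fold minimum, 0 with no low-count filter, 0 in the 4 libraries alone, 10 with DESeq2, 0 to 0 when a compared library was left out, and 0 without library B of the CD8-depleted combination group, chosen after seeing the data. Against the pair of antibodies the count of 0 became 15 with DESeq2 and 59 in the 4 libraries alone, and against APG-157 with anti-PD-1 it became 6 with DESeq2. The causes were not tested. Gm6565, a predicted gene, was a DESeq2 call in each of these comparisons, at log2 fold changes of −40.97, −40.59 and −42.18. Libraries of this depth cannot hold changes of that size, so these estimates are not measured folds. The main edgeR fit called Gm6565 in none of these comparisons. Of 105 named genes, 49 took the opposite sign of log2 fold change in at least 1 setting.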

Other observations

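A few genes were present in one group and listed at 0 in the other, and these were examined after their values were seen. With at least 10 fragments in each library of one group and 0 in both of the other, 9 genes were present with anti-PD-1 and 2 were present in the controls. Rps12l1, a ribosomal protein-like gene that may share reads with its parent, held 677 and 1303 fragments with anti-PD-1 and 0 in both controls, at least 671-fold higher from a floor of 3 fragments over the group, and it was at 0 in 13 of 20 libraries. Its unadjusted p was 0.0694 and its adjusted p 1 by edgeR over 20 libraries. The adjusted p was 3.64e-06 in the edgeR fit of the 4 libraries with a replicate block and 2.29e-07 by DESeq2 with the alphabetically first group as reference. With control as its reference, DESeq2 did not call Rps12l1, so that call depended on the reference level. Ugt1a6b, a glucuronidation enzyme gene in a cluster that shares exons, held 40 and 63 fragments against 0 and 0 and was at 0 in 8 of 20 libraries. In the other direction Gm10108 held 0 and 0 fragments with anti-PD-1 and 192 and 153 in the controls, and was at 0 in 11 of 20 libraries. The unadjusted p of Ugt1a6b and Gm10108 was 0.0241 and 0.041 by edgeR, with an adjusted p of 1 each, and 0.00901 and 0.000575 were their adjusted p with the replicate block.

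Of the genes called in the 4 libraries with the replicate block, 3 heart and slow muscle genes outside the muscle list were looked at for that reason. Myh7, the slow myosin heavy chain, held 156 and 1417 fragments with anti-PD-1 and 4 and 10 in the controls. Myh6, a heart myosin heavy chain, held 18 and 296 against 0 and 0. Tnni1, slow troponin, held 162 and 508 against 46 and 51. Each had a higher value in anti-PD-1 B than in anti-PD-1 A, and none had an unadjusted p under 0.05 in the edgeR fit of 20 libraries. In the edgeR block fit that picked them, their adjusted p was 8.35e-05 for Myh7, 0.00144 for Myh6 and 0.0161 for Tnni1. Being the basis of the choice, those values are no separate support for the 3 genes. DESeq2 with the alphabetically first group as reference gave an adjusted p of 0.000757 for Myh6. With control as its reference, DESeq2 did not call Myh6. The DESeq2 value rests on the same counts, 0 in both controls, and is no separate support either.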
